A study of Mus musculus with 30 samples.

Results

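Transcripts of 40 complement and coagulation genes made by hepatocytes were followed in the livers of mice given perfluorooctane sulfonate (PFOS). The genes came from a written list of complement components, complement regulators, clotting factors, and inhibitors, and were found on the arrays by the gene symbol of each probe set. Of the 40 genes, 37 had a probe set annotated to that gene alone, and all 37 passed the filter on weak signal, among 12164 genes tested in all. C3 and Cpb2 had no probe set named for them in the annotation used, and C4b had only one shared with C4a, so these 3 genes are named without values. The 37 genes fell into 13 of complement, 4 complement regulators, 13 of clotting, and 7 inhibitors and genes of fibrinolysis.

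Total RNA came from the left lobe of the liver of male mice aged 6 to 9 months, with 1 Affymetrix mouse genome array per mouse. PPARα-null (Null) mice, strain 129S4/SvJae-Pparatm1Gonz/J, carry a disrupted Ppara gene in all tissues, and wild-type (WT) mice were 129S1/SvlmJ, so that a difference between genotypes may include one between substrains. Mice of each genotype received the potassium salt of PFOS in Tween 20 by gavage on 7 consecutive days at 0, 3, or 10 mg/kg, and the 0 mg/kg groups served as controls. Each of the 6 groups had 5 arrays, 30 in all, and values are log2 expression values from Robust Multichip Average (RMA) normalization. Changes are given on the log2 scale, as one group mean minus another, and a gene was called when its adjusted p from limma was under 0.05.

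Complement is a chain of plasma proteases that marks microbes and builds the membrane attack complex, which makes pores in cell membranes. Clotting is a parallel chain that runs from the contact and tissue factor starts to thrombin and fibrin, and it is held in check by plasma inhibitors and dissolved by plasmin. Hepatocytes secrete most of these proteins, and PPARα, a nuclear receptor activated by fatty acids and by perfluoroalkyl acids, is a known regulator of hepatocyte genes.

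Ppara, the gene disrupted in Null mice, averaged over its probe sets, lay between 8.78 and 9.81 in the 15 arrays labeled Null and between 9.93 and 10.77 in 13 of the 15 arrays labeled WT. In the other 2, replicates 4 and 5 of WT 0 mg/kg, it stood at 8.66 and 8.74. Cyp2b10, a cytochrome P450 gene, was at 12.80 and 12.93 in these 2 arrays and at 7.81 to 8.20 in the other WT controls. It was at 11.56 to 12.94 in treated WT arrays, 10.47 to 13.185 in treated Null arrays, and 6.78 to 9.06 in Null controls. Why these 2 arrays differ from the other WT controls was not tested. The 2 doubted arrays, replicates 4 and 5 of WT 0 mg/kg, were kept as labeled. Results that moved without them are given both ways, for some genes only as counts by class. The 8 hepatocyte markers had mean values from 11.98 to 12.65 per array. In bulk liver RNA, fewer hepatocytes and less RNA per hepatocyte cannot be told apart.

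At 10 mg/kg PFOS, all 37 genes had lower means in treated WT livers than in control WT livers. The test called 12 genes lower and 0 higher, where 5.53% of all genes tested were called lower and 7.53% higher. The median change was -0.24, against -0.0041 over all genes tested. Called were C8b, C9, C8a, and C1ra of complement, F11, F7, F5, F9, Klkb1, Kng1, and F13b of clotting, and the thrombin inhibitor gene Serpind1. No complement regulator was called. Without the 2 doubted arrays F10 had a change of 0.01, and it was the only gene of the 37 with a mean above controls. At an unadjusted p under 0.05, 30 of the 37 genes were lower, as were 15.6% of all genes tested. In 9 genes, every treated array lay below every control array, which held for 3.53% of all genes tested. Without the 2 doubted arrays, 25 of the 37 were called lower, the median change was -0.29, and 14.2% of all genes were called lower. By class, these were 9 of 13 complement genes, 1 of 4 complement regulators, 10 of 13 clotting genes, and 5 of 7 inhibitors and genes of fibrinolysis. With 3 controls left, treated and control arrays did not overlap in 22 of the 37 genes and in 15.6% of all genes.

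**Figure D1:**
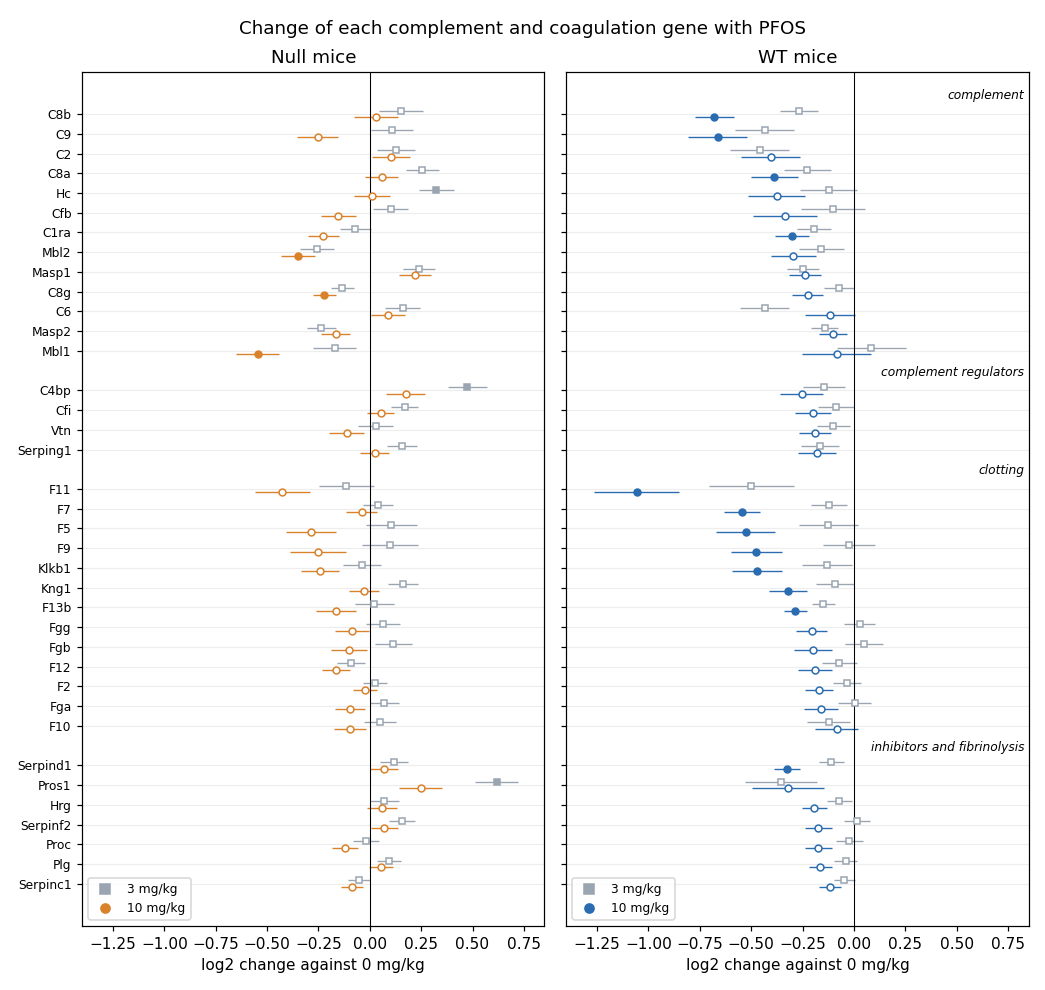
Log2 change against 0 mg/kg of each of the 37 genes in Null mice (left) and WT mice (right), grouped by class, with squares for 3 mg/kg, circles for 10 mg/kg, and bars for the SE. Filled symbols passed an adjusted p under 0.05, which 12 genes did in WT mice at 10 mg/kg and 3 genes did at each dose in Null mice.

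Promoter sequences are shown for 6 of the genes called lower in WT livers, which include the C8b and C8a genes, neighbors on chromosome 4, and F11 and Klkb1, neighbors on chromosome 8, so that each pair can be read side by side. They are the 250 bases before the start that the RefSeq promoter table gives each gene (GRCm38.p6), 5′ to 3′ on the strand of the gene. For C8b, C9, and Klkb1 this start is the 5′ end of the span that RefSeq gives the gene. For F7, F11, and C8a it lies 528, 24, and 89 bases inside that span, so that the F7 sequence falls wholly within the annotated gene and the other two in part. Capitals mark matches to AGGTCA (a half-site of nuclear receptors), GTTAAT (a half-site of HNF1), TTGCNNAA (a C/EBP motif), or CAAAGTNCA (an HNF4 motif), searched on both strands.
C8b (chr4:104766067-104766316, plus strand): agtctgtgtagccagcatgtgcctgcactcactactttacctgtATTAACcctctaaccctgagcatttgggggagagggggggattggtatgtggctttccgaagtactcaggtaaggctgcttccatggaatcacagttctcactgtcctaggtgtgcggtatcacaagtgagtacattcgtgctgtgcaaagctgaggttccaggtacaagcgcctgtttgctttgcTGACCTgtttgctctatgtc
C8a (chr4:104876399-104876648, minus strand): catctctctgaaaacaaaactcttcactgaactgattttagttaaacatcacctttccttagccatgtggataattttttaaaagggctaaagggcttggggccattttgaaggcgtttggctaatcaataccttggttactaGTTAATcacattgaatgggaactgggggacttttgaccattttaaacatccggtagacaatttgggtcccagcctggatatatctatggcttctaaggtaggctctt
C9 (chr15:6445096-6445345, plus strand): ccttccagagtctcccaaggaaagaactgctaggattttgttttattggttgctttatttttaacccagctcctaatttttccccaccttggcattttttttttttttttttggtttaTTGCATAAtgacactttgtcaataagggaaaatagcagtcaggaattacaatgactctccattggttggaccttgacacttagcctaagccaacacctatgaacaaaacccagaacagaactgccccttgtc
F7 (chr8:13025784-13026033, plus strand): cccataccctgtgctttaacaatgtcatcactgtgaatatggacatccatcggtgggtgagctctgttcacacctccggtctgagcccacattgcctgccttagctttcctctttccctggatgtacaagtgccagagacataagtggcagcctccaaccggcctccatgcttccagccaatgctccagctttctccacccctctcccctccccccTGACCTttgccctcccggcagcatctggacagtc
F11 (chr8:45262032-45262281, minus strand): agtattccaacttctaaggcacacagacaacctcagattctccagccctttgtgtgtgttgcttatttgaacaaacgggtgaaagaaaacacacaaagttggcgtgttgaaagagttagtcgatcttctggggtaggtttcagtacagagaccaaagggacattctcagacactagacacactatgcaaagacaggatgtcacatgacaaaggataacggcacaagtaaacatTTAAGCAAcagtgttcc
Klkb1 (chr8:45294836-45295085, minus strand): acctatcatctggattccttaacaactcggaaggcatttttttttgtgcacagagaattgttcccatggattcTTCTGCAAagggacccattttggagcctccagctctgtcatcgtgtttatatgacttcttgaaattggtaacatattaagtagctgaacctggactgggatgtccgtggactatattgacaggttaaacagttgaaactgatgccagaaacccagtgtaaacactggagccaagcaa

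In these sequences, C8b held AGGTCA on the reverse strand 20 to 15 bases before the start in that table and GTTAAT on the reverse strand, and C8a held GTTAAT 107 to 102 bases before the start. F7 held AGGTCA on the reverse strand 34 to 29 bases before its start in the table. C9, F11, and Klkb1 each held 1 TTGCNNAA match, which in F11 lay 17 to 10 bases before the start. No CAAAGTNCA match and no overlap of motifs was found in the 6. Among all 32851 promoters of this length, 14% held AGGTCA, 6.43% GTTAAT, 9.56% TTGCNNAA, and 1.19% CAAAGTNCA. Of the 40 listed genes, 31 had a promoter in the table, and 10, 9, 8, and 1 of the 31 held these motifs in the same order. A listed gene counted when any of its promoters held the motif, while the percentages are shares of single promoters. The counts and percentages are therefore in different units.

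Among the terminal components, C8b, which encodes the β chain of C8 in the membrane attack complex, had the smallest p of the 37 genes. Its values were 11.21, 11.21, 11.48, 11.38, and 11.10 in WT livers at 10 mg/kg, against 12.11, 12.02, 12.05, 11.83, and 11.76 in WT controls. The groups did not overlap, and the 2 doubted arrays were the lowest controls. C8b fell by 0.68 (SE 0.0928, adjusted p = 0.00034), to 0.625 of its control level on the linear scale. In Null livers the means were 12.02 ± 0.169 at 10 mg/kg and 11.98 ± 0.218 in controls (SD, n = 5 each), a change of 0.03 (SE 0.107, adjusted p = 0.893).

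C9, which polymerizes to form the pore, had values of 12.39, 12.25, 12.76, 12.48, and 12.19 in WT livers at 10 mg/kg, against 13.27, 13.10, 13.33, 12.82, and 12.89 in WT controls. Replicate 3 was the highest treated array and lay just below the lowest control, and the groups did not overlap. C9 fell by 0.66 (SE 0.144, adjusted p = 0.0106). C8a, for the α chain of C8, fell by 0.39 (SE 0.115, adjusted p = 0.0434), with overlapping groups, as treated replicate 3 stood at 12.35 and the controls at 12.22 to 12.50. C8g, for the γ chain, had treated values of 13.12 to 13.20, all just below the controls at 13.21 to 13.54, and its change of -0.23 did not pass with all arrays (adjusted p = 0.0597) but did without the 2 doubted arrays (-0.33, adjusted p = 0.00369). Hc, the mouse gene for C5, had a change of -0.38 (adjusted p = 0.0901), and C6 one of -0.12 (adjusted p = 0.564).

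The 3 chains of C8 did not change by the same amount in WT livers. Within arrays, the C8b value minus the C8a value was -0.87 to -0.56 at 10 mg/kg and -0.52 to -0.23 in controls, a shift of -0.29, and C8b minus C8g shifted by -0.45. Both shifts had an exact permutation p of 0.00794 (two-sided, the smallest that 5 against 5 arrays can give), adjusted to 0.0238 over the 12 tests made on 6 pairs of partner genes. In Null livers these shifts were -0.02 (exact permutation p = 0.802) and 0.25 (exact permutation p = 0.119), and each pair overlapped between the groups. Without the 2 doubted arrays the WT shifts were -0.37 and -0.45. The pairs were chosen with earlier results known. C9 set against C6, which is also on chromosome 15 and joins the complex earlier, shifted by -0.34 in Null livers with no overlap (exact permutation p = 0.00794, adjusted p = 0.0238) and by -0.55 in WT livers with overlap (exact permutation p = 0.0317, adjusted p = 0.0635). The WT shift was -0.72 without the 2 doubted arrays (exact permutation p = 0.0714).

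Of the genes that start the cascade, C1ra, which encodes the C1r protease of the classical pathway, had values of 11.23 to 11.39 in WT livers at 10 mg/kg and 11.52 to 11.89 in WT controls. The groups did not overlap, and the gene fell by 0.30 (SE 0.0832, adjusted p = 0.0326). Mbl2 and Mbl1, for the mannose-binding lectins that recognize microbial sugars, had changes of -0.30 (adjusted p = 0.0924) and -0.08 (adjusted p = 0.786) with all arrays. Mbl1 set against Mbl2 shifted by -0.20 in Null livers and 0.21 in WT livers (exact permutation p = 0.135 and 0.278). Without the 2 doubted arrays Mbl2 passed (-0.43, adjusted p = 0.0149), Mbl1 had a change of -0.32 (adjusted p = 0.124), and the WT shift between them was 0.11 (exact permutation p = 0.571). C2 and Cfb, for the proteases of the classical and alternative convertases, had changes of -0.41 (adjusted p = 0.0806) and -0.33 (adjusted p = 0.173). Cfb passed without the 2 doubted arrays (-0.52, adjusted p = 0.0207). The lectin pathway proteases Masp1 and Masp2 had changes of -0.24 (adjusted p = 0.0625) and -0.10 (adjusted p = 0.344). The 4 regulators lay close together. C4bp, which binds C4b, had a change of -0.25 and the C3b and C4b protease gene Cfi one of -0.20 (adjusted p = 0.121 and 0.142). Vtn (vitronectin) had a change of -0.19 and the C1 inhibitor gene Serping1 one of -0.18 (adjusted p = 0.131 and 0.215). Without the 2 doubted arrays 1 of the 4 was called lower. Vtn then did not overlap, with treated values up to 13.22 and controls from 13.27.

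Among clotting genes the largest change was in F11, which encodes factor XI, the protease that activates factor IX. F11 had values of 8.82, 8.65, 8.62, 8.96, and 8.60 in WT livers at 10 mg/kg, against 9.93, 10.02, 10.45, 9.01, and 9.54 in WT controls. Treated arrays lay within a narrow band below every control, while the doubted replicates 4 and 5 were the 2 lowest controls and replicate 4 was only just above the treated arrays. F11 fell by 1.06 (SE 0.205, adjusted p = 0.00539), to 0.48 of its control level, and fell by 1.40 without the 2 doubted arrays (adjusted p = 4.88e-05). Its neighbor on the chromosome, Klkb1, which encodes plasma prekallikrein of the contact system, fell by 0.47 (SE 0.121, adjusted p = 0.0243). Klkb1 values were 11.16, 11.05, 11.34, 11.41, and 11.16 at 10 mg/kg, against 11.82, 11.99, 11.89, 11.39, and 11.39 in WT controls. The groups overlapped, since treated replicate 4 lay just above the 2 doubted controls. The F11 value minus the Klkb1 value shifted by -0.59 in WT livers (two-sided exact permutation p = 0.0159, adjusted p = 0.0381), and this difference passed in only 2 of 10 runs with 1 array left out. It was -0.73 without the 2 doubted arrays (exact permutation p = 0.0357, the smallest that 5 against 3 arrays can give). In Null livers the shift was -0.18 (exact permutation p = 0.103).

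F7, for factor VII, the protease that joins tissue factor to start clotting, had values of 10.93, 10.93, 11.21, 10.87, and 10.77 in WT livers at 10 mg/kg, against 11.62, 11.44, 11.56, 11.48, and 11.34 in WT controls. The groups did not overlap, with replicate 3 the highest treated array. F7 fell by 0.54 (SE 0.0878, adjusted p = 0.00151). F10, its neighbor on the chromosome, which encodes the factor X that factor VII activates, had a change of -0.08 (SE 0.105, adjusted p = 0.648), with treated values of 8.30 to 8.61 inside the control range of 8.29 to 8.73. The F7 value minus the F10 value was 2.45 to 2.60 at 10 mg/kg and 2.76 to 3.33 in controls, a shift of -0.46 (two-sided exact permutation p = 0.00794, adjusted p = 0.0238). The shift was -0.61 without the 2 doubted arrays (exact permutation p = 0.0357). In Null livers it was 0.06 (exact permutation p = 0.556). F10 had the lowest control level of the 37 genes (8.49), and its 3 probe sets had changes from -0.18 to -0.05.

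F9 (factor IX), F5 (factor V), and Kng1 (kininogen, the cofactor of the contact system) also fell in WT livers. F9 values were 11.04, 10.94, 11.71, 11.24, and 11.07 at 10 mg/kg, against 11.79, 11.80, 11.88, 11.47, and 11.44 in WT controls. Replicate 3 stood among the controls and the other 4 treated arrays below all of them, and F9 fell by 0.47 (SE 0.126, adjusted p = 0.028). F5 fell by 0.53 (SE 0.143, adjusted p = 0.0306) and Kng1 by 0.32 (SE 0.0917, adjusted p = 0.0383), both with overlapping groups. The other probe set of F5 had a change of -0.42 (adjusted p = 0.0639) and that of Kng1 one of -0.20 (adjusted p = 0.221), and neither passed. F13b, for the carrier subunit of the factor XIII that crosslinks fibrin, had a small and even change. Its values were 11.05, 11.11, 11.25, 11.17, and 11.13 at 10 mg/kg, against 11.40, 11.48, 11.42, 11.38, and 11.47 in WT controls, with no overlap, and it fell by 0.28 (SE 0.0563, adjusted p = 0.006). Prothrombin (F2), factor XII (F12), and the fibrinogen chains Fga, Fgb, and Fgg had changes from -0.20 to -0.16, and none passed with all arrays. Without the 2 doubted arrays 10 of the 13 clotting genes were called lower, among them F12 with a change of -0.32 (adjusted p = 0.00641). F2 then did not overlap, with treated values up to 13.30 and controls from 13.41.

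The 3 fibrinogen genes were among the brightest of the 37, and their treated and control arrays overlapped. Fgg had a change of -0.20 (SE 0.0752, adjusted p = 0.0901), Fgb of -0.20 (SE 0.0925, adjusted p = 0.176), and Fga of -0.16 (SE 0.082, adjusted p = 0.217). Of the 11 genes with a WT control level of 13 or above, 1 was called lower with all arrays (C9), and the median change was -0.19. Of the 26 below 13, 11 were called lower, with a median change of -0.31. Whether signal near the top of the scale made these changes smaller was not tested.

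**Figure D2:**
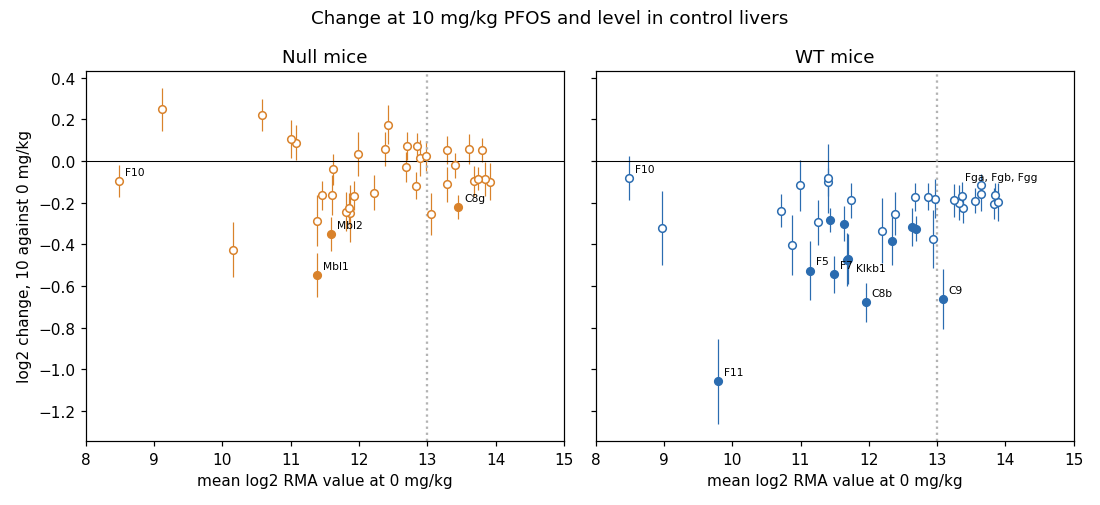
Log2 change at 10 mg/kg against the mean log2 value at 0 mg/kg for each of the 37 genes in Null mice (left) and WT mice (right), with SE bars and filled points for called genes. In WT mice 11 of the 12 called genes lie below a control level of 13 (dotted line), and the fibrinogen chains sit at the bright end with changes from -0.20 to -0.16.

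Of the inhibitors and genes of fibrinolysis, Serpind1, which encodes the thrombin inhibitor heparin cofactor II, was called. Serpind1 values were 12.39, 12.34, 12.48, 12.26, and 12.32 in WT livers at 10 mg/kg, against 12.67, 12.73, 12.76, 12.65, and 12.61 in WT controls. All treated arrays lay below all controls, and it fell by 0.33 (SE 0.0616, adjusted p = 0.00469). Serpinc1 (antithrombin), Plg (plasminogen), Proc (protein C), Serpinf2 (the plasmin inhibitor α2-antiplasmin), and Hrg (histidine-rich glycoprotein, which binds plasminogen and heparin) had changes from -0.19 to -0.12. Hrg did not overlap between the groups (adjusted p = 0.0509). Without the 2 doubted arrays 5 of the 7 genes of this class were called lower, against 14.2% of all genes. The groups then did not overlap in 6 of the 7, against 15.6% of all genes. Pros1, for protein S, the cofactor of protein C, had a change of -0.32 with a wider spread (SE 0.176, adjusted p = 0.244) and of -0.15 without the 2 doubted arrays (adjusted p = 0.612).

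**Figure D3:**
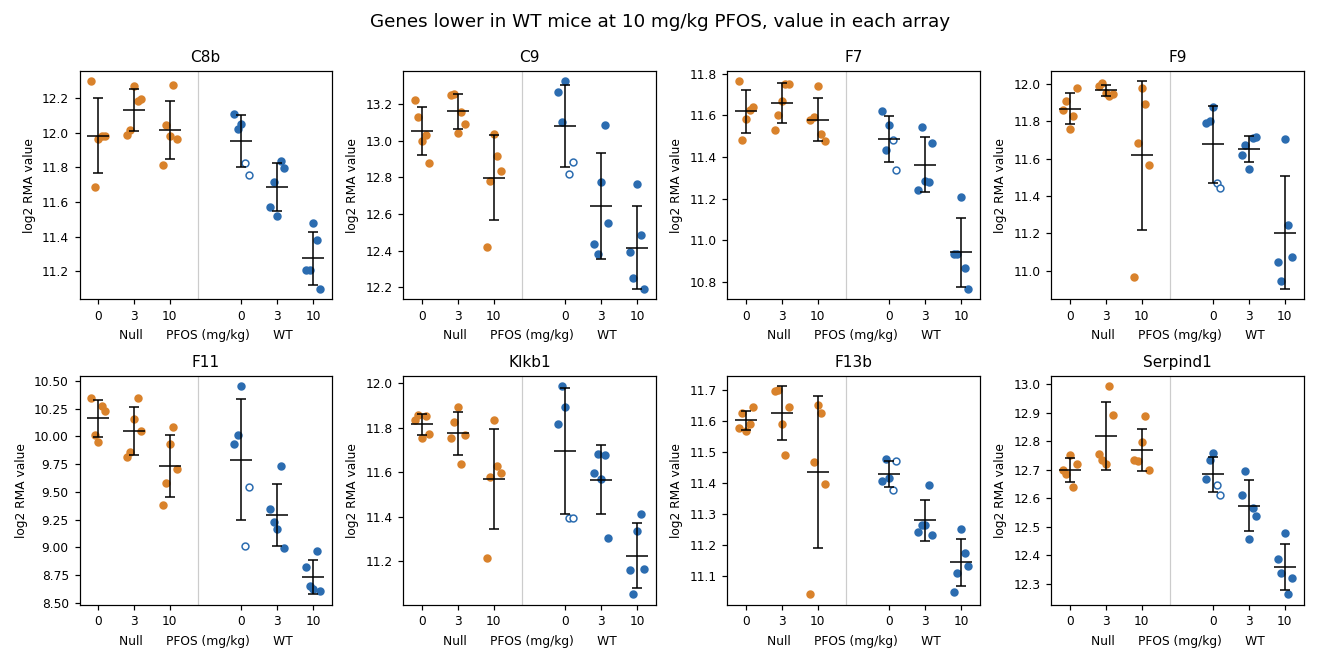
Log2 RMA value in each array for the 8 genes with the smallest p in WT mice at 10 mg/kg, by genotype (Null left, WT right) and dose. Points are arrays (orange Null, blue WT, open circles the 2 doubted WT controls), and lines give the mean ± SD of 5 arrays. C8b, C9, F7, F11, F13b, and Serpind1 have every WT array at 10 mg/kg below every WT control.

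At 3 mg/kg, 0 of the 37 genes were called in WT livers, where 0.00822% of all genes were called lower and 0.238% higher, while 8 were lower at an unadjusted p under 0.05, as were 3.48% of all genes. Means were below controls in 32 of the 37 genes, with a median change of -0.12. F11 values were 9.34, 9.23, 9.16, 9.73, and 8.99, which overlapped the controls, and its change of -0.50 (adjusted p = 0.853) reached -0.84 without the 2 doubted arrays (adjusted p = 0.024). C2, C9, and C6 had changes of -0.46, -0.44, and -0.43 (adjusted p = 0.577, 0.632, and 0.402).

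Between the doses in WT mice, F7, C8b, and F9 were lower at 10 than at 3 mg/kg, 3 of 37 genes, where 2.91% of all genes were called lower. F7 averaged 10.94 ± 0.165 at 10 mg/kg and 11.36 ± 0.133 at 3 mg/kg (SD, n = 5 each), and fell by 0.42 (adjusted p = 0.0168). C8b fell by 0.41 (adjusted p = 0.0226), and neither gene overlapped between the doses. F9 fell by 0.45 (adjusted p = 0.0498), with overlap, as its values at 3 mg/kg were 11.55 to 11.71. F11 averaged 9.79, 9.29, and 8.73 in WT livers at 0, 3, and 10 mg/kg, and its step between the doses had an adjusted p of 0.106 with all arrays and 0.0179 without the 2 doubted arrays, which enter this fit through its estimate of spread. Leaving out 1 array gave 10 called genes without replicate 3 of WT 10 mg/kg and 1 called gene without replicates 1, 2, or 5 of WT 10 mg/kg or 2, 4, or 5 of WT 3 mg/kg.

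In Null livers at 10 mg/kg, 3 of the 37 genes were called lower and 0 higher, where 4.93% of all genes were called lower and 4.13% higher. They were the lectin genes Mbl1 and Mbl2 and the C8 chain gene C8g, all of complement. The median change was -0.09, and 23 of the 37 means were below controls, among them all 13 clotting genes, of which 4 were lower at an unadjusted p under 0.05, as were 14.1% of all genes. Treated arrays lay below all controls in 4 genes (the 3 called and Serpinc1), which held for 5.03% of all genes tested.

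Mbl1 had values of 10.65, 11.02, 10.78, 11.03, and 10.72 in Null livers at 10 mg/kg, against 11.47, 11.42, 11.46, 11.31, and 11.27 in Null controls. The groups were apart, and Mbl1 fell by 0.55 (SE 0.104, adjusted p = 0.0064). In WT livers Mbl1 averaged 11.32 ± 0.236 at 10 mg/kg and 11.40 ± 0.369 in controls (SD, n = 5 each), and its treated arrays all lay inside the control range. The 3 WT controls other than the doubted arrays had Mbl1 values of 11.58 to 11.73, and of the 5 treated arrays replicate 3 (11.66) lay among them and the other 4 below. Mbl2 had values of 11.25, 11.23, 11.38, 11.27, and 11.08 in Null livers at 10 mg/kg, against 11.44, 11.60, 11.57, 11.62, and 11.73 in Null controls, and fell by 0.35 (SE 0.0821, adjusted p = 0.0179). C8g had values of 13.27, 13.27, 13.17, 13.19, and 13.26 in Null livers at 10 mg/kg, against 13.44, 13.50, 13.47, 13.49, and 13.38 in Null controls. It fell by 0.22 (SE 0.0556, adjusted p = 0.0245) with no overlap, while C8a and C8b had changes of 0.06 and 0.03. F11 had a change of -0.43 (SE 0.133, adjusted p = 0.0639), and its values of 9.38 to 10.08 overlapped the Null controls at 9.95 to 10.34.

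Replicate 1 of Null 10 mg/kg was the lowest of its group in 16 of the 37 genes and replicate 5 in 17. In replicate 1, F9 stood at 10.97, against 11.56 to 11.98 in the other 4 treated Null arrays, and F13b at 11.04, against 11.40 to 11.65. Without replicate 1, 4 of the 37 genes were called lower and 1 higher. Without replicate 3, 7 were called lower.

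At 3 mg/kg, 3 of the 37 genes were called higher in Null livers and 0 lower, where 2.01% of all genes were called higher and 3.13% lower. They were Pros1, the C4b-binding protein gene C4bp, and Hc. Pros1 had values of 9.71, 9.87, 9.51, 9.77, and 9.78 in Null livers at 3 mg/kg, against 9.14, 9.20, 9.08, 8.99, and 9.13 in Null controls. The groups lay well apart, and Pros1 rose by 0.62 (SE 0.104, adjusted p = 0.00501), to 1.53 times its control level. Without replicate 1 of Null 10 mg/kg, which enters the fit through the spread, 4 of the 37 genes were called higher and 1 lower.

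C4bp had values of 12.83, 12.91, 12.73, 13.16, and 12.86 in Null livers at 3 mg/kg, against 12.38, 12.49, 12.38, 12.35, and 12.52 in Null controls, and rose by 0.48 (SE 0.0939, adjusted p = 0.0114). Hc had values of 13.15, 13.26, 13.28, 13.17, and 13.19 in Null livers at 3 mg/kg, against 12.93, 12.81, 12.94, 12.83, and 12.91 in Null controls, and rose by 0.32 (SE 0.0867, adjusted p = 0.0479). Neither C4bp nor Hc overlapped between the groups, although Hc passed in 3 of 15 runs with 1 array left out. In Null livers 3 complement genes had every array at 3 mg/kg below every Null control without passing, Mbl2 (-0.26, adjusted p = 0.0918), Masp2 (-0.24, adjusted p = 0.0724), and C8g (-0.13, adjusted p = 0.211), which held for 5.35% of all genes tested. Every array at 3 mg/kg lay above every Null control in 6 genes, the 3 called and C8a, Kng1, and Serping1, which held for 4.4% of all genes, and the last 3 had changes of 0.25, 0.16, and 0.16 (adjusted p = 0.0888, 0.247, and 0.261). At 10 mg/kg Pros1, C4bp, and Hc were closer to Null controls, with changes of 0.25 in Pros1 (adjusted p = 0.168), 0.17 in C4bp (adjusted p = 0.29), and 0.01 in Hc (adjusted p = 0.953). With 10 set against 3 mg/kg, 0 of the 37 genes were called in Null livers and 0% of all genes tested in either direction with limma, with 36 of the 37 means lower at 10 mg/kg, against 5769 of 12164 over all genes. At an unadjusted p under 0.05, 14 of the 37 genes and 6.17% of all genes were lower.

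**Figure D4:**
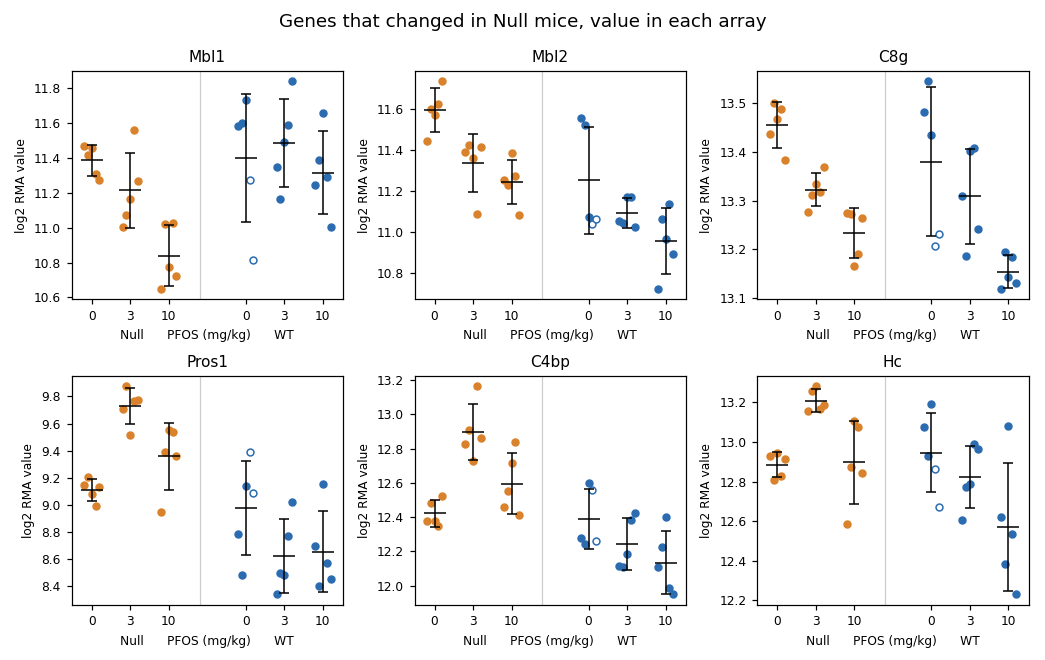
Log2 RMA value in each array for the 6 genes called in Null mice, by genotype (Null left, WT right) and dose, with Mbl1, Mbl2, and C8g lower at 10 mg/kg and Pros1, C4bp, and Hc higher at 3 mg/kg. Points are arrays (orange Null, blue WT, open circles the 2 doubted WT controls), and lines give the mean ± SD of 5 arrays.

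Tested as a difference in response to 10 mg/kg, 4 of the 37 genes had a more positive change in Null than in WT mice and 0 a more negative one, where 0.748% of all genes were called more positive and 3.03% more negative. C8b changed by 0.03 in Null livers and -0.68 in WT livers, a difference of 0.71 (SE 0.143, adjusted p = 0.00741). F7 changed by -0.04 in Null livers and -0.54 in WT livers, a difference of 0.50 (SE 0.112, adjusted p = 0.0136), and Serpind1 by 0.07 and -0.33, a difference of 0.40 (SE 0.0844, adjusted p = 0.0107). These 3 genes also passed without the 2 doubted arrays (adjusted p = 0.00311, 0.0126, and 0.011).

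Masp1 was the other called gene, with changes of 0.22 in Null livers and -0.24 in WT livers and a difference of 0.46 (SE 0.107, adjusted p = 0.0179). Its 4 probe sets did not give the same picture, since the other 3 had differences of 0.18, 0.07, and -0.0049, and none of them passed. In Null livers at 10 mg/kg the other 3 had negative changes, down to -0.48, and only the chosen 1 was positive. In WT livers all 4 had negative changes, from -0.55 to -0.0043. F11 had a difference of 0.63 (adjusted p = 0.197) and passed only without the 2 doubted arrays (0.98, adjusted p = 0.0126). For the other 8 genes called in WT livers, C9, C8a, C1ra, F5, F9, Klkb1, Kng1, and F13b, the differences were 0.07 to 0.44 and none passed with or without the 2 doubted arrays, so that these changes are not shown to differ between the genotypes. Without replicate 3 of WT 10 mg/kg, 8 of the 37 genes had a more positive response in Null mice.

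At 3 mg/kg, the response of Pros1, C4bp, and Masp1 was more positive in Null than in WT mice, 3 of 37 genes, where 0.238% of all genes were called so. The differences were 0.97 (adjusted p = 0.0287), 0.62 (adjusted p = 0.0313), and 0.49 (adjusted p = 0.0287). The Masp1 value is from 1 of its 4 kept probe sets, and the others did not pass for the difference at 10 mg/kg. Without the 2 doubted arrays they were 0.80, 0.61, and 0.52, and none passed (adjusted p = 0.107, 0.0848, and 0.0527). With 1 array left out, the count was 5 when WT control replicate 2 was dropped, 0 when Null control replicate 4, WT control replicate 4, or WT 3 mg/kg replicate 1 or 3 was dropped, and 1 without replicate 2 or 3 of Null 0 mg/kg or replicate 1, 2, 4, or 5 of Null 3 mg/kg. Between the control groups, 0 of the 37 genes differed between Null and WT mice at 0 mg/kg, where 0.896% of all genes were higher and 0.682% lower in Null mice, and 6 of the 37 were higher at an unadjusted p under 0.05, as were 9.68% of all genes.

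**Figure D5:**
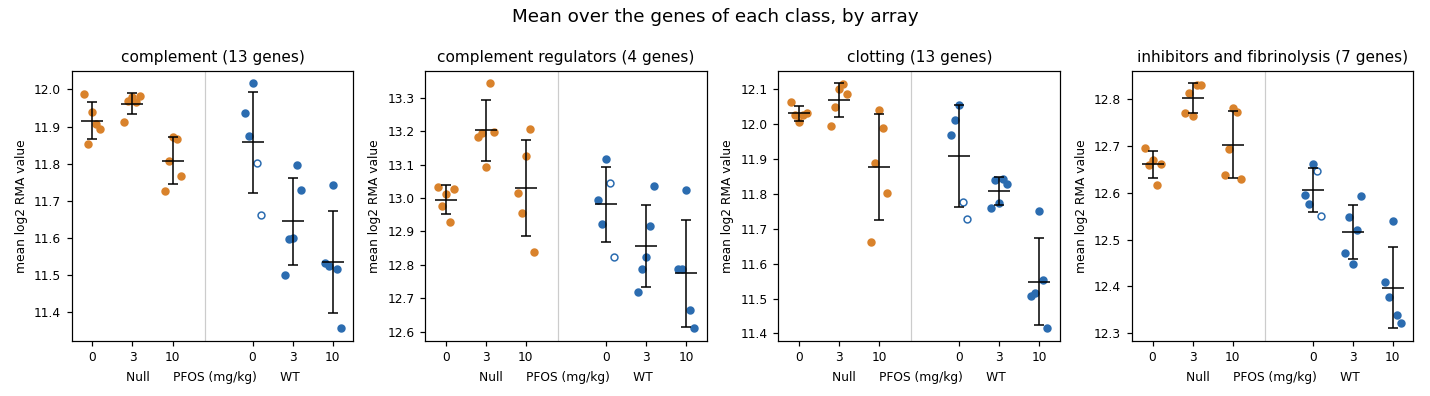
Mean log2 RMA value over the genes of each class in each array, by genotype (Null left, WT right) and dose. Points are arrays (orange Null, blue WT, open circles the 2 doubted WT controls), and lines give the mean ± SD of 5 arrays. WT replicate 3 at 10 mg/kg is the highest of its group in every class.

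The mean over all 37 genes was 11.69 to 12.03 in WT livers at 10 mg/kg, against 11.98 to 12.27 in WT controls, and replicate 3 at 10 mg/kg was the highest of its group in 29 of the 37 genes. Replicate 5, a doubted array, was the lowest WT control in 23 of the 37. Replicate 3 of WT 0 mg/kg was the highest WT control in 19 of the 37 and the lowest in 0. It stays among the 3 controls left without the 2 doubted arrays. Without replicate 3 of WT 10 mg/kg, 22 genes were called lower, and without replicate 5 of WT 0 mg/kg, 24. Leaving out any 1 of the other arrays of these 2 groups gave 6 to 12 called genes. C8b, C9, F7, F11, F13b, and Serpind1 were called lower in all 15 runs that left out 1 WT array.

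Genes near these 37 were read from other lists. Over all genes tested, 5.53% were called lower and 7.53% higher in WT livers at 10 mg/kg, and 4.93% lower and 4.13% higher in Null livers. Without the 2 doubted arrays, 14.2% of all genes were called lower in WT livers at 10 mg/kg. Of 17 further complement genes, 4 were lower in WT livers at 10 mg/kg, and 6 were lower and 1 higher without the 2 doubted arrays. C1s1, for the C1s protease that pairs with C1r, fell by 0.70 (SE 0.108, adjusted p = 0.00109), the collectin gene Colec10 by 0.58, the ficolin gene Fcna by 0.43, and Cfhr2, a factor H relative, by 1.10. In Null livers at 10 mg/kg, 4 of the 17 were lower, Cd59a, for an inhibitor of the membrane attack complex (fell by 0.49, adjusted p = 0.0043), Fcna (by 0.52), C1qc (by 0.51), and C1qa (by 0.42). Macrophages make C1q. The 18 Kupffer cell and macrophage markers, which include the C1q genes, had a median change of -0.39 in Null livers at 10 mg/kg. The 3 called lower were C1qa and C1qc, already named, and Cd5l. In WT livers the median change was -0.31 with 0 called, or 1 called lower without the 2 doubted arrays. The mean level of these markers was 7.71 to 8.47 in Null livers at 10 mg/kg and 8.19 to 8.68 in Null controls. It was 7.48 to 8.26 in WT livers at 10 mg/kg and 7.73 to 8.96 in WT controls. The 8.96 was replicate 3 of WT 0 mg/kg, and the other WT controls were at 7.73 to 8.25. The part of these markers in the changes of the 37 genes was not tested.

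Of 16 further genes of clotting and fibrinolysis, Hgfac and the thrombin receptor gene F2r were lower in WT livers at 10 mg/kg (fell by 0.27 and by 0.43) and Anxa2 was higher (0.65), and without the 2 doubted arrays 3 were lower and 1 higher. Of 21 other plasma protein genes of hepatocytes, 1 was lower, Ahsg, for fetuin-A (fell by 0.34, adjusted p = 0.0031), with a median change of -0.13. Of 20 acute phase genes 1 was lower, Cp, for ceruloplasmin (fell by 0.61, adjusted p = 0.0451), with a median of -0.27. Both counts were near the 5.53% of all genes called lower in WT livers at 10 mg/kg. Of 8 hepatocyte markers, Ass1, Cps1, Hnf4a, Tat, and Pck1 were lower in WT livers at 10 mg/kg (changes from -0.80 to -0.29), while Alb (-0.03), Ttr (-0.02), and Apoa1 (-0.14) did not pass. Their mean level was 11.98 to 12.17 in WT livers at 10 mg/kg and 12.38 to 12.57 in WT controls, with none called in Null livers. The part of this level in the changes of the 37 genes was not tested. Ass1 had only 1 kept probe set, at 6.24 to 8.26 over all arrays, against 13.18 to 13.62 for Cps1. Hnf4a is given by 1 of its 4 kept probe sets. Of 9 stellate cell markers 1 was lower in Null livers and 2 in WT livers at 10 mg/kg, and of 16 endothelial markers 2 were higher in Null livers and 0 were called in WT livers. When the 2 doubted arrays were left out, 14.2% of all genes were called lower in WT livers at 10 mg/kg. In the lists these were 5 of the 21 plasma protein genes, 1 of the 20 acute phase genes, and 4 of the 8 hepatocyte markers. They were also 5 of the 9 stellate cell markers and 6 of the 16 endothelial markers.

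Of 26 regulators of hepatocyte genes, Hnf4a (fell by 0.42, adjusted p = 0.0343), Nr5a2 (by 0.36, adjusted p = 0.0065), and the interleukin 6 receptor gene Il6ra (by 0.72, adjusted p = 0.0214) were lower in WT livers at 10 mg/kg, where 5.53% of all genes were. Averaged over its 4 kept probe sets, Hnf4a was at 9.81 to 10.02 in WT livers at 10 mg/kg and overlapped the WT controls. The doubted controls were at 9.91 and 9.94 and the other WT controls at 10.25 to 10.41. Without the 2 doubted arrays 7 of the 26 regulators were lower, as were 14.2% of all genes. Creb3l3, for a transcription factor of the liver acute phase response, was higher in both genotypes, by 0.48 in Null livers (adjusted p = 0.0014) and 0.35 in WT livers (adjusted p = 0.0035).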

How the data were processed

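Liver RNA of 30 mice was hybridized to Affymetrix whole-genome mouse arrays, 1 per mouse, with 5 separate mice in each of 6 groups by the labels. The deposited table held log2 values that the authors had normalized by Robust Multichip Average in RMA Express. Of 45101 probe sets, 64 controls were left out, and 24098 exceeded the overall median (5.65) on 5 or more arrays and were kept. The platform annotation gave 34958 probe sets 1 gene, 932 several, and 9211 none, and symbols were updated through RefSeq.

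Group means were compared in limma 3.58.1 (R 4.3.3), on the 15 arrays of a genotype for dose comparisons and on all 30 arrays for contrasts between genotypes, with Benjamini-Hochberg adjustment over all kept probe sets. Each gene was represented by 1 probe set, the one whose p over the dose effects was smallest. Partner genes were compared by exact permutation tests in SciPy 1.17.1 (Python 3.11.15), adjusted over 12 tests. Figures were drawn with matplotlib 3.10.9, and the limma step was tested on simulated data.

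The 40 genes, the other gene lists, and the partner pairs were chosen with earlier results of these data known. All 40 genes were to be named, with values per array for the 8 of smallest p among those called in WT mice at 10 mg/kg, for the 4 of smallest p among those called in each other comparison, and for partners. Genes of the other lists are named where called, Masp1 probe sets where they differed. The number of arrays limits the precision. By the study's methods all arrays were labeled and hybridized in 1 block, and no batch was tested. Alternatives were other filters, probe sets, scalings, and spread models, the methods' t-test, a replicate block, and arrays left out.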

Additional observations from a re-analysis of the deposited data

Results flagged for a closer look

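In 222 sets of 5 arrays, 1 for each of the 37 genes in each group, 10 held an array far from the other 4 (Dixon's test), and chance alone marks about 1 in 20 such sets. In WT livers at 3 mg/kg, replicate 5 stood apart for Fgb (14.13, others 13.87 to 13.91), Fgg (14.03, others 13.78 to 13.85), and Serpinf2 (13.01, others 12.83 to 12.86), and replicate 2 did so for F5 (11.28, others 10.90 to 11.01). Replicate 4 of that group stood apart for F13b (11.39, others 11.23 to 11.26). Replicate 3 stood apart in WT livers at 10 mg/kg for Cfi (13.41, others 12.98 to 13.10) and in WT controls for C1ra (11.89, others 11.52 to 11.62). In Null livers, replicate 4 at 3 mg/kg was low for Mbl2 (11.08, others 11.36 to 11.42), replicate 3 at 10 mg/kg high for Proc (12.85, others 12.64 to 12.69), and replicate 5 at 10 mg/kg low for Serpinf2 (12.82, others 12.92 to 12.96).

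The response to PFOS differed between Null and WT mice in the limma test of the difference for C8b (0.71), F7 (0.50), Masp1 (0.46), and Serpind1 (0.40) at 10 mg/kg, and for Pros1 (0.97), C4bp (0.62), and Masp1 (0.49) at 3 mg/kg. Masp1 is given by 1 of its 4 kept probe sets, and the others did not pass at 10 mg/kg.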

How the results depend on the processing

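No called value reversed its direction in any setting. Counts of called genes for WT 10 against 0 mg/kg were 12 as reported, 19 with all 30 arrays in the fit, and 25 without WT 0 mg/kg replicates 4 and 5; without these 2 arrays they were also 1 for WT 3 against 0 mg/kg, 7 for WT 10 against 3 mg/kg, and 0 for the difference in response at 3 mg/kg. That last count was 1 with no filter. The methods' t-test at an unadjusted p of 0.0025 called 5 genes for Null 3 against 0 mg/kg. With 1 array left out, counts ran from 6 to 24 for WT 10 against 0 mg/kg, 0 to 0 for WT 3 against 0 mg/kg, 1 to 10 for WT 10 against 3 mg/kg, 2 to 7 for Null 10 against 0 mg/kg, 2 to 5 for Null 3 against 0 mg/kg, and 0 to 0 for Null 10 against 3 mg/kg. They ran from 4 to 8 for the difference in response at 10 mg/kg, 0 to 5 at 3 mg/kg, and 0 to 1 for Null against WT controls. The causes were not tested, beyond the fewer or further arrays of each setting. Replicate numbers were not used to pair the samples. As deviations from their group means, same-numbered arrays correlated by -0.23 to 0.32. Differently numbered arrays were not compared, so the range cannot show whether the numbers pair. With a replicate block, 11 genes were called for WT 10 against 0 mg/kg. The 3 separated partner differences in WT mice and that of C9 and C6 in Null mice passed with any 1 array left out.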
